A study of Mus musculus with 54 samples.

Results

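The transcripts described here encode 10 neuropeptides chosen as chiefly those of hypothalamic nuclei around the suprachiasmatic nucleus (SCN), which does not mean that the SCN makes none of them. They are *Pomc*, *Agrp*, *Npy*, *Sst*, *Gal*, *Oxt*, *Trh*, *Crh*, *Hcrt* and *Pmch*. They were chosen by name as peptides of neighbouring nuclei, and their rows were found in the count table through their Ensembl identifiers. All 10 were among the 30031 genes of the table, and 10 of 10 passed the filter on low counts that left 18941 genes to test. Each level was read library by library, so that a difference between dissections could be set beside a difference between times of day.

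The SCN was cut by laser-capture microdissection from brains of male C3H/HeH mice aged 10 to 12 weeks, kept on 12 hr of light and 12 hr of dark and housed alone for 7 days before harvest. Brains were taken at ZT2, ZT6, ZT10, ZT14, ZT18 and ZT22, where ZT is zeitgeber time in hours after lights on. Each timepoint had 3 biological replicates (A, B and C), each a pool of tissue from 5 animals, so a single animal that was cut unlike the others is averaged with 4 more. The labels name no engineered allele and no drug, and the groups differ in the time of harvest. About 1 ng of RNA per replicate was amplified before sequencing, and the libraries held between 15412981 counts (ZT18-C) and 35820945 counts (ZT14-A). In the study's plot of principal components the libraries formed 3 clusters, ZT14 beside ZT18, ZT6 beside ZT10 and ZT2 beside ZT22. Its legend names timepoint and sequencing batch. The labels do not say which libraries shared a batch. From the timing of key clock genes the paper judged any batch effects to be minimal. Time and a possible batch cannot be told apart between these 3 clusters, so only a difference inside a cluster compares times within a possible batch.

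The SCN is the master circadian clock of mammals and sits above the optic chiasm beneath the third ventricle. Arcuate neurons that make *Agrp* and *Npy* drive feeding, whereas arcuate *Pomc* neurons restrain it. The paraventricular nucleus makes *Oxt*, *Trh* and *Crh*, which act through the pituitary and on brain targets, and the lateral hypothalamus makes *Hcrt* (orexin) and *Pmch* (melanin-concentrating hormone), which bear on wakefulness and sleep. Somatostatin (*Sst*) and galanin (*Gal*) are made in several of these nuclei, and *Sst* and *Npy* also mark inhibitory interneurons of the cortex and striatum. A laser cut that strays beyond the SCN border would bring such transcripts into a library. In pooled tissue, fewer cells of a type and less RNA per cell cannot be told apart.

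A relative of one of the 10 genes, alike in part of its sequence, is itself a leading SCN transcript. *Oxt* and *Avp* (vasopressin) lie beside each other on mouse chromosome 2 and encode peptides of the same plan. The stretch that codes for each peptide was taken from the GENCODE M21 transcripts as the 9 codons before the first cleavage site, bases 58 to 84 of the *Oxt* coding sequence and 70 to 96 of the *Avp* coding sequence, and is shown because it is where the peptides differ. Capitals mark the bases that differ.
Oxt: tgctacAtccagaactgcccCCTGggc
Avp: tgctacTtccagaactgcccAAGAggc
Counted from 1 at the 5′ end of these 27 bases, the changes from *Oxt* to *Avp* are A7T, C21A, C22A, T23G and G24A. The transcripts, of 537 and 577 bases, share an exact run of 127 bases further on. Of the 438 windows of 100 bases in the *Oxt* transcript, 28 occur unchanged in *Avp*. Reads from this run could be assigned to either gene, and *Oxt* values are uncertain to that extent. *Npy* and its relative *Pyy* share no run longer than 10 bases, and *Sst* and *Cort* none longer than 21.

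*Npy* was the only 1 of the 10 in the study's list of qPCR primers. Its primers lie at bases 242 to 349 of the *Npy* transcript and span 108 bases, and they are shown because they mark the part of the transcript that qPCR reads.
Npy forward: cgctctgcgacactacatca
Npy reverse: gcgttttctgtgctttccttca

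Levels per kilobase of exon differed widely among the peptides. Mean CPM per kb over the 18 libraries (CPM, read counts scaled to a common library total with TMM) was 166 for *Npy* and 146 for *Sst*, followed by 16.2 for *Trh*, 7.56 for *Gal*, 5.99 for *Oxt* and 5.32 for *Pomc*. The other members were near the limit of detection, with 0.888 for *Pmch*, 0.601 for *Hcrt*, 0.315 for *Agrp* and 0.259 for *Crh*. On this scale *Avp* stood at 252 and *Vip*, the other main SCN peptide, at 545. *Npy* and *Sst* were thus of the order of SCN transcripts, and the other 8 were at least an order of magnitude lower than *Avp*.

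**Figure D1:**
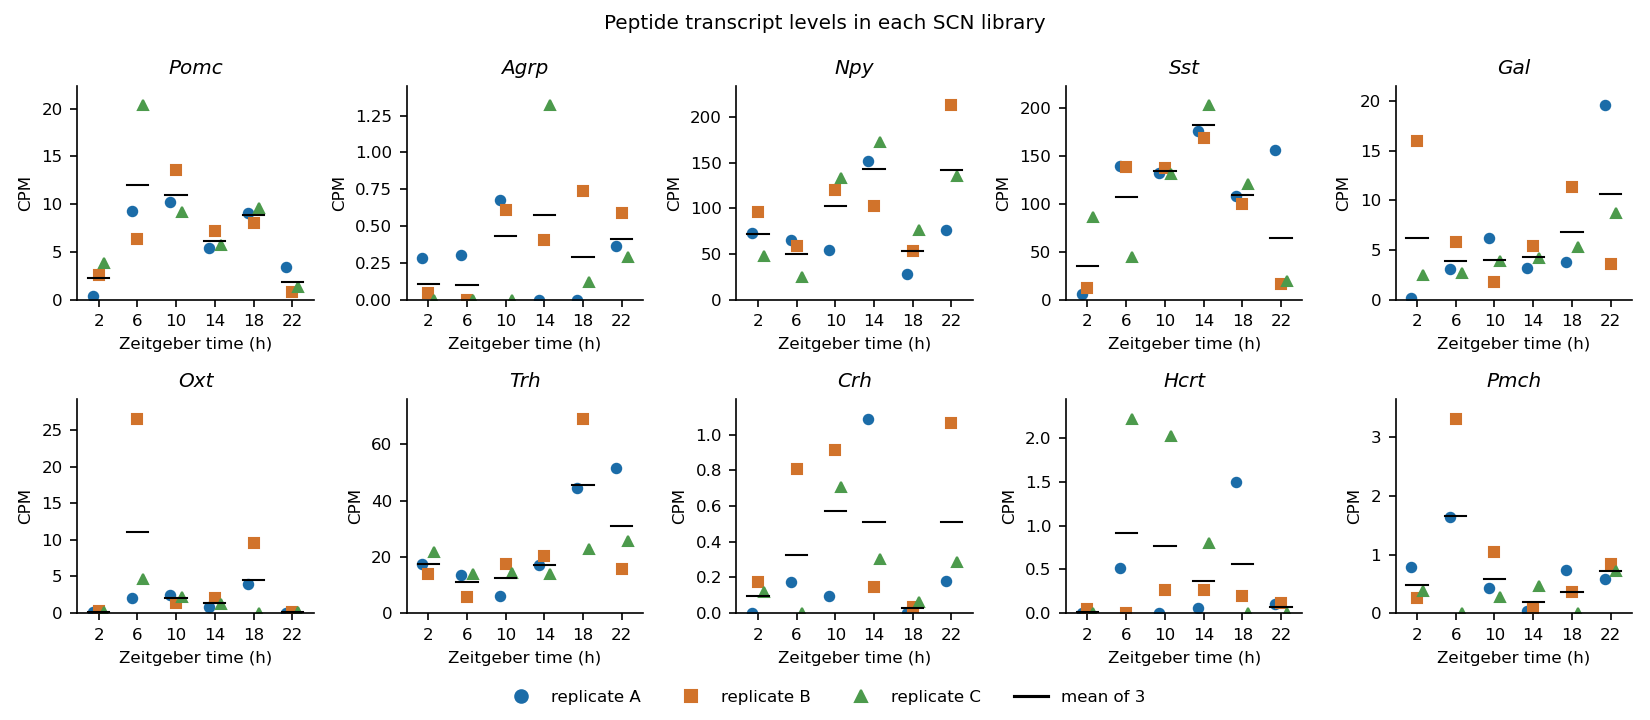
Level of each peptide transcript in CPM (y axis, from 0, a scale of its own per panel) against zeitgeber time in hours (x axis) in 18 libraries; points are replicates A, B and C and the bar is their mean. *Sst* was even at ZT10, ZT14 and ZT18 but differed 14.3-fold between replicates at ZT2, and *Pomc* was low in all libraries of ZT2 and ZT22.

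Whether the 6 timepoint means were equal was tested with the quasi-likelihood F-test of edgeR, with q-values over all 18941 genes. Of the 10 peptides, 4 changed (*Oxt*, *Trh*, *Pomc* and *Npy*), and 44% of all tested genes did. A count of 4 in 10 is close to that background. The replicates may differ in dissection as well as in biology, and the test judges the timepoint means against the spread between these pools. No single library was needed for these calls, since each of the 4 kept a q under 0.05 whichever of the 18 was left out. Without the libraries of ZT2 and ZT22, a setting chosen after seeing the data, *Trh* (q = 0.0165) and *Npy* (q = 0.0477) were called by edgeR, while *Oxt* (q = 0.165) and *Pomc* (q = 0.264) were not. In that setting 22.9% of all tested genes were called. With all timepoints, DESeq2 called the same 4 and gave no q for *Sst*, beside 56.5% of the genes to which it gave one.

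*Pomc*, the precursor of melanocortins and β-endorphin made by arcuate neurons, lies at chr12:3954951-3960642 on the plus strand of GRCm38. It stood at 9.24, 6.30 and 20.3 CPM in replicates A, B and C of ZT6 and at 10.2, 13.5 and 9.16 CPM at ZT10. It stood at 5.36, 7.17 and 5.75 CPM at ZT14 and at 9.05, 8.06 and 9.58 CPM at ZT18. It stood at 3.41, 0.771 and 1.36 CPM at ZT22 and at 0.396, 2.54 and 3.85 CPM at ZT2. Every library of ZT22 and ZT2 was thus below every library of the other timepoints. The mean fell from 11.96 ± 7.41 CPM (SD, n = 3) at ZT6 to 1.85 ± 1.38 CPM at ZT22, a log2 difference of 2.69 (SE 0.67). The time test over the 6 timepoints gave q = 0.00813 (edgeR). The difference was 2.07 without ZT6-C and 3.48 without ZT22-A. Of the spread of its log2 CPM, 71.9% lay between the clusters and 1.35% between the timepoints of a cluster.

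*Agrp*, an inhibitor of melanocortin receptors and the defining product of the other arcuate feeding neurons, was close to absent. It had 0 counts in 6 of 18 libraries and at most 48 (1.32 CPM, ZT14-C). It did not change with time (edgeR, q = 0.779). In GENCODE M21 its locus, chr8:105566698-105637393 on the minus strand, spans 7 other genes, *Ctcf* and *Ripor1* among them, so that even these few reads are uncertain.

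*Npy* is co-released with *Agrp* in the arcuate nucleus, and fibres that carry it also reach the SCN from the thalamus. The gene lies at chr6:49822710-49829507 on the plus strand. Its level was 152, 103 and 173 CPM at ZT14 and 28.2, 53.7 and 76.4 CPM at ZT18. It was 76.3, 213 and 136 CPM at ZT22 and 73.0, 96.5 and 47.4 CPM at ZT2. It was 64.9, 59.3 and 25.2 CPM at ZT6 and 54.9, 120.5 and 134 CPM at ZT10. Libraries of ZT14 were all above those of ZT18, while ZT22 overlapped ZT2 and ZT6 overlapped ZT10. The highest mean was 143 ± 35.8 CPM at ZT14 and the lowest 49.8 ± 21.5 CPM at ZT6 (SD, n = 3), a log2 difference of 1.52 (SE 0.45). The time test over the 6 timepoints gave q = 0.0202 (edgeR). Unlike *Pomc*, *Npy* had only 6.61% of its spread between the clusters, and 51.8% between the timepoints inside them.

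At several timepoints the libraries with most *Npy* also had most of the markers of excitatory neurons of the cortex and hippocampus. The summed level of 6 such markers was 57.4, 230 and 167 CPM in replicates A, B and C of ZT22, the same order as for *Npy*. It was 107, 99.8 and 212 CPM at ZT14, where *Npy* was again highest in replicate C. It was 25.3, 43.0 and 63.8 CPM at ZT18 and 42.7, 43.4 and 77.7 CPM at ZT10, both in the order of *Npy*. At ZT2 it was highest in replicate C (82.7 CPM), where *Npy* was lowest, and at ZT6 the orders also differed. All 6 markers were tested and 3 changed with time, beside 44% of all tested genes. Among the 3 was *Slc17a7*, a vesicular glutamate transporter (61.0 ± 18.9 CPM at ZT14 and 9.70 ± 2.42 CPM at ZT6, SD, n = 3, edgeR q = 0.000107). *Neurod6*, a transcription factor of cortical neurons, was another (70.7 ± 43.8 CPM at ZT22 and 1.29 ± 1.099 CPM at ZT6, edgeR q = 0.000696). None of the 6 markers was at 0 in more than 1 library. Their part in the *Npy* levels was not tested.

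*Sst*, an inhibitory peptide of periventricular neurons that restrains growth hormone release, was even between replicates at 3 timepoints and very uneven at 2. The gene lies at chr16:23889573-23890958 on the minus strand. Its level was 133, 138 and 131 CPM at ZT10, a range of 1.05-fold. It was 176, 169 and 203 CPM at ZT14, 108, 99.5 and 120.5 CPM at ZT18 and 139, 138 and 44.7 CPM at ZT6. At ZT2, by contrast, it was 6.05, 12.6 and 86.3 CPM, a 14.3-fold range, and at ZT22 it was 157, 15.8 and 19.4 CPM, a 9.90-fold range. ZT2-A, ZT2-B, ZT22-B and ZT22-C thus lay below every other library, while ZT2-C and ZT22-A did not stand apart from the rest. The means ran from 182 ± 18.0 CPM at ZT14 to 35.0 ± 44.6 CPM at ZT2 (SD, n = 3), a log2 difference of 2.38 (SE 0.83), and the time test was not passed (edgeR, q = 0.202). It was passed without ZT2-C, where the log2 difference was 4.15 (edgeR q = 0.0117), and without ZT22-A, where it was 2.38 (edgeR q = 0.0116). The variation between replicates that edgeR estimates for a gene, its biological coefficient of variation, was 65.0% for *Sst* where genes of that level typically had 22.3%.

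The 3 genes whose deviations from the timepoint means were most like those of *Sst*, out of 15759 with a mean of at least 10 reads, were *Nans* (r = 0.976), *1700023F06Rik* (r = 0.968) and *Mrps12* (r = 0.966), each r a description over 18 libraries that share 6 timepoint means and that rests largely on ZT2 and ZT22. *Nans* is a sialic acid synthase and *Mrps12* a protein of the mitochondrial ribosome. *Nans* stood at 1.87, 4.26 and 18.3 CPM in replicates A, B and C of ZT2 and at 23.4, 3.71 and 4.48 CPM at ZT22, against 14.5 to 40.6 CPM elsewhere. *Mrps12* stood at 2.88, 7.14 and 20.7 CPM at ZT2 and at 30.2, 7.46 and 7.13 CPM at ZT22. These genes were picked for this likeness, so their low values in the same libraries are no separate finding. In all, 271 genes had an r of at least 0.8 with *Sst*, beside 344 for *Pmch*, 284 for *Oxt*, 139 for *Pomc*, 19 for *Gal*, 14 for *Hcrt*, 9 for *Npy* and 3 for *Trh*.

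**Figure D2:**
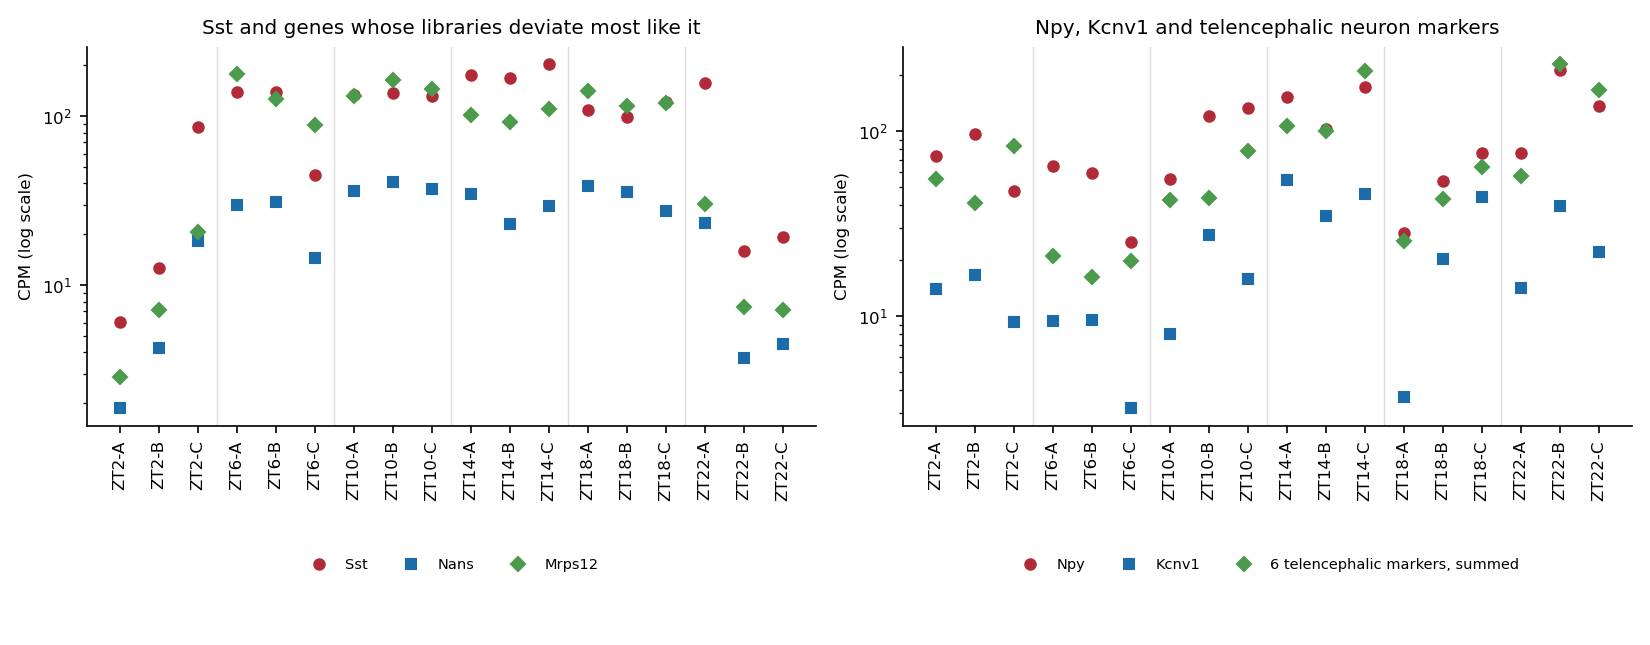
CPM on a log scale (y axis) in each of the 18 libraries (x axis), at left for *Sst*, *Nans* and *Mrps12* and at right for *Npy*, *Kcnv1* and the summed level of 6 telencephalic excitatory neuron markers. In ZT2-A, ZT2-B, ZT22-B and ZT22-C, *Sst*, *Nans* and *Mrps12* are at their lowest together, and *Npy* and the summed markers are both highest in ZT22-B.

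The likest genes of *Npy* were *Kcnv1*, a modifier subunit of voltage-gated potassium channels (r = 0.883), *Fam84a* (r = 0.853) and *Tmem14a* (r = 0.837). For *Pomc* they were *Bag6* (r = 0.938), a chaperone cofactor, *Mzt2* (r = 0.932) and *Snrpc* (r = 0.918), a protein of the U1 splicing particle, and 10 genes had an r of at least 0.9. *Snrpc*, picked for its likeness to *Pomc*, stood at 0.622, 3.96 and 13.02 CPM in replicates A, B and C of ZT2, the order of *Pomc* there. *Mzt2* was low in ZT2-A (11.5 CPM), but its 34.2 and 41.7 CPM in ZT2-B and ZT2-C lay within its range elsewhere (28.5 to 51.9 CPM).

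*Gal*, galanin, an inhibitory peptide of preoptic and dorsomedial neurons (chr19:3409915-3414544, minus strand), did not change with time (edgeR, q = 0.630). Its libraries ran from 0.170 CPM (ZT2-A, 3 counts) to 19.6 CPM (ZT22-A) and differed widely within these timepoints, with 15.97 CPM in ZT2-B and 3.56 CPM in ZT22-B. At ZT14 the 3 libraries lay between 3.21 and 5.43 CPM. Of its spread, 78.0% lay between replicates of the same timepoint, the highest share among the 10 peptides. Its likest genes were *Sstr1* (r = 0.881), a somatostatin receptor, *Saysd1* (r = 0.856) and *Serinc1* (r = 0.847).

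*Oxt*, oxytocin, marks magnocellular neurons of the paraventricular and supraoptic nuclei, and the gene lies at chr2:130576173-130577054 on the plus strand. It had 2, 6 and 3 counts in replicates A, B and C of ZT2 and 2, 4 and 6 counts at ZT22. It had 48, 560 and 98 counts at ZT6, or 2.08, 26.5 and 4.64 CPM, and 52, 33 and 46 counts at ZT10. It had 29, 70 and 45 counts at ZT14 and 123, 296 and 1 counts at ZT18. All libraries of ZT2 and ZT22, and also ZT18-C, had at most 6 counts, and every other library had at least 29. The mean ran from 11.1 ± 13.4 CPM at ZT6 to 0.145 ± 0.0713 CPM at ZT22 (SD, n = 3), a fitted log2 difference of 6.21 (SE 1.30). The time test over the 6 timepoints gave q = 0.00120 (edgeR). The SD at ZT6 exceeded the mean, since ZT6-B alone held most of the counts. Without ZT6-B the log2 difference was 4.49 (edgeR time test, q = 0.00610), and the highest mean would be that of ZT18. Between clusters lay 60.1% of its spread.

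*Avp* was lower in the same 6 libraries, with 85 to 368 counts in those of ZT2 and ZT22 and 474 to 11011 in the others. *Oxt* amounted to 18.0% and 40.3% of *Avp* in ZT18-A and ZT18-B but to 0.211% in ZT18-C, and it ran from 0.436% to 5.82% at ZT6. How many of the *Oxt* reads came from the shared run of 127 bases was not tested. ZT18-C, the shallowest library, was also near 0 for the genes most like *Oxt*, namely *Trim62* (0.0610 CPM there against 2.53 to 14.5 CPM in the other libraries, r = 0.938) and *Plcl1* (0.244 CPM there against 10.9 to 32.3 CPM, r = 0.930). *Aldh16a1* came next (r = 0.928). As these genes were picked for their likeness to *Oxt*, their low values in ZT18-C are no separate finding. 

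**Figure D3:**
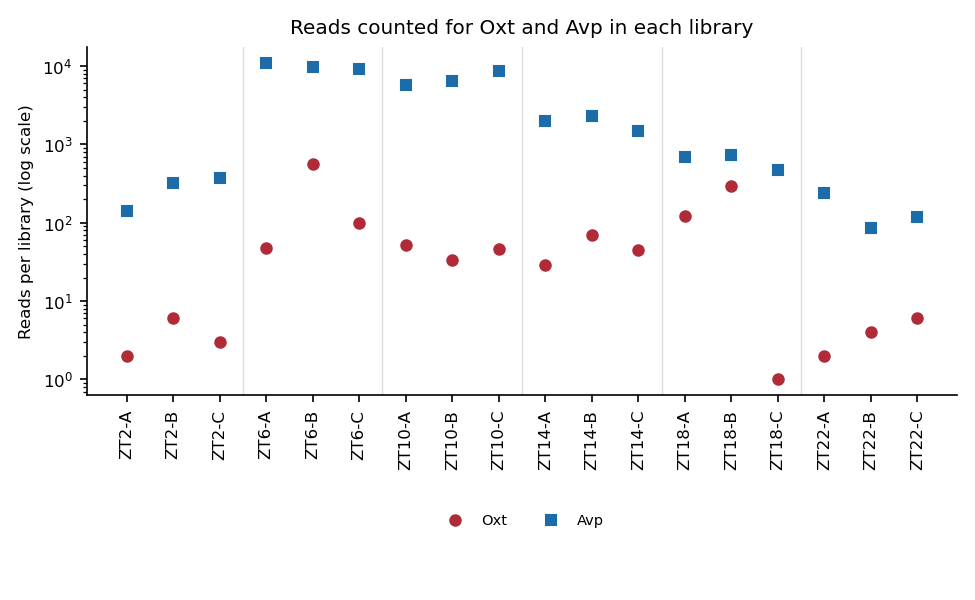
Reads counted for *Oxt* and *Avp* (y axis, log scale) in each of the 18 libraries (x axis). *Oxt* had at most 6 reads in all libraries of ZT2 and ZT22 and 1 read in ZT18-C, and *Avp* was lowest in ZT2 and ZT22, with 85 to 368 reads.

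*Trh*, thyrotropin-releasing hormone (chr6:92242061-92244650, minus strand), starts the thyroid axis from the paraventricular nucleus. It stood at 44.3, 69.0 and 22.9 CPM in replicates A, B and C of ZT18 and at 16.9, 20.3 and 13.8 CPM at ZT14. It stood at 51.7, 15.7 and 25.4 CPM at ZT22 and at 17.4, 13.8 and 21.6 CPM at ZT2. It stood at 13.4, 5.87 and 13.9 CPM at ZT6 and at 6.07, 17.5 and 14.3 CPM at ZT10. ZT18 was above ZT14 in every library, and the highest single values were those of ZT18-B and ZT22-A. The mean rose from 11.1 ± 4.502 CPM at ZT6 to 45.4 ± 23.1 CPM at ZT18 (SD, n = 3), a log2 difference of 2.04 (SE 0.49). The time test of *Trh* over the 6 timepoints gave q = 0.00833 (edgeR). Its likest genes were *Ky* (r = 0.847), *Pim3* (r = 0.845), a serine/threonine kinase, and *Gm12571* (r = 0.830), and 0 genes reached an r of 0.9.

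*Crh*, corticotropin-releasing hormone (chr3:19693401-19695396, minus strand), the head of the stress axis, had 0 to 39 counts per library. At ZT14 it had 39, 5 and 11 counts and at ZT18 it had 0, 1 and 1, so these timepoints did not overlap, but the time test was not passed (edgeR, q = 0.243). *Hcrt* (chr11:100761069-100762931, minus strand) had 0 counts in 6 libraries and at most 47, in ZT6-C and again in ZT18-A. *Pmch* (chr10:88091072-88092375, plus strand), which overlaps *Parpbp* on the other strand, had 0 counts in 2 libraries and at most 70, in ZT6-B. Neither changed with time (edgeR, q = 0.250 for *Hcrt* and q = 0.468 for *Pmch*), and the few counts limit what could be detected. The libraries with most *Hcrt* were not those with most *Pmch*: ZT6-C had 47 counts of *Hcrt* and 0 of *Pmch*, and ZT6-B had 0 of *Hcrt* and 70 of *Pmch*. The likest genes of *Hcrt* were *Atp23* (r = 0.881), *Wdpcp* (r = 0.864) and *Aig1* (r = 0.852), and those of *Pmch* were *Ifitm2* (r = 0.937), *Gpc4* (r = 0.936) and *Rbm46* (r = 0.930).

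Inside the clusters, no peptide passed the edgeR tests. Between ZT14 and ZT18, 0 of 10 passed against 0.57% of all tested genes. Between ZT22 and ZT2, 0 passed against 0.0317%, and between ZT6 and ZT10, 0 passed against 0.0475%. At an unadjusted p under 0.05 in edgeR the counts were 3, 1 and 2 of the 10 peptides, beside 2564, 680 and 2042 of the 18941 tested genes. The differences nearest the threshold were those of *Npy*, higher at ZT14 than at ZT18 by a log2 difference of 1.44 (SE 0.45, edgeR q = 0.148), and of *Trh*, which differed by -1.42 (SE 0.48, edgeR q = 0.179). DESeq2 called both, beside 5.16% of the genes to which it gave a q in this comparison. It called 0 peptides between ZT22 and ZT2 (0.447% of genes) and 0 between ZT6 and ZT10 (1.4% of genes). Of the 6 telencephalic markers, *Slc17a7* passed in ZT14 against ZT18, higher at ZT14 by a log2 difference of 1.98 (edgeR q = 0.0352). In ZT14 against ZT18, 5 of 10 peptides had replicates that did not overlap (*Npy*, *Sst* and *Crh* higher at ZT14, *Trh* and *Pomc* higher at ZT18), where 21.8% of all tested genes did. In ZT22 against ZT2, 2 of 10 did not overlap (*Crh* and *Agrp*, both higher at ZT22 and both at 29 counts or fewer), beside 11.6% of genes, and in ZT6 against ZT10 it was 0 of 10, beside 12.4%.

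The peptides differed in where their spread lay. The median share of the sum of squares of log2 CPM that lay between replicates of the same timepoint was 48.6% over the 10 peptides. It was 41.7% over all tested genes and 37.6% over those with a mean of at least 10 reads. Over 14 SCN markers it was 6.99%, but 12 of them changed with time, so a low share is partly built into that list. Among the peptides the share ran from 26.8% for *Pomc* to 78.0% for *Gal*. The biological coefficient of variation ran from 37.6% for *Npy* to 156% for *Agrp*. It was above the value typical of the gene's level for 8 of 10 peptides, as it was for 38.3% of tested genes. As the shares rest on 10 genes of very different level, no test was made of them.

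**Figure D4:**
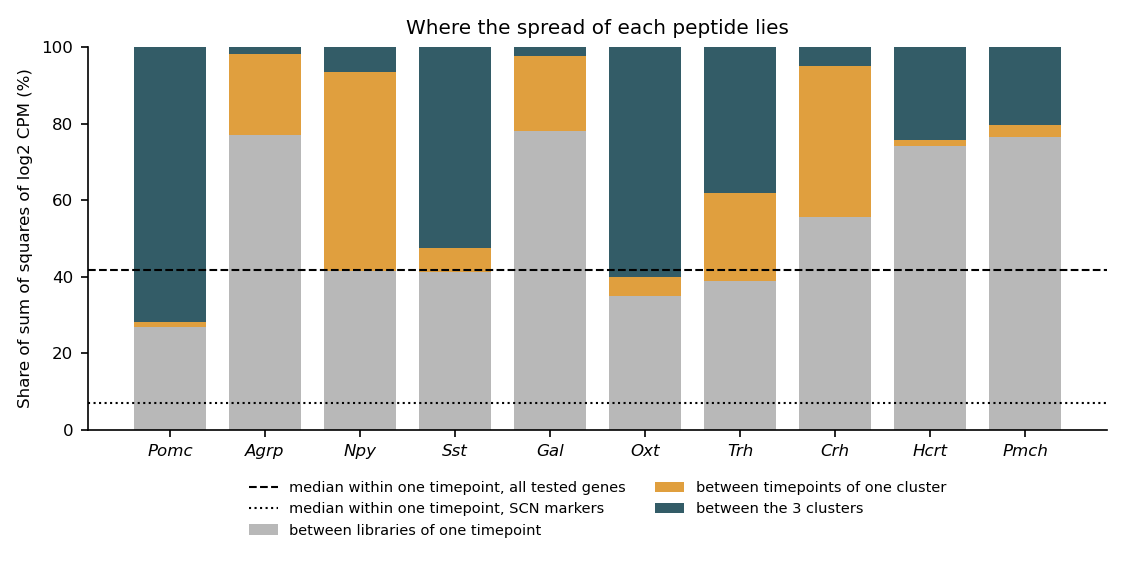
Share of the sum of squares of log2 CPM in percent (y axis) for each peptide (x axis), divided into replicates of the same timepoint, timepoints of the same cluster and the 3 clusters; lines mark the median share within a timepoint over all tested genes (41.7%) and over the SCN markers (6.99%). The largest share lay between clusters for *Pomc*, *Oxt* and *Sst*, between the timepoints inside them for *Npy*, and between replicates for *Gal*, *Agrp*, *Hcrt*, *Pmch*, *Crh* and, by a small margin over the clusters, *Trh*.

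To see which peptides were high in the same libraries, deviations from the timepoint means were compared for the 28 pairs among the 8 peptides with a mean of at least 10 reads (*Crh* and *Agrp* were left out), by exact permutation within timepoints. No pair passed after Benjamini–Hochberg adjustment for either Pearson's r or Spearman's rho, with a lowest adjusted p of 0.748 in the exact permutation test of r. Pearson's r ran from -0.479 (*Pomc* with *Npy*) to 0.605 (*Sst* with *Pomc*), with a median of -0.0326, and 13 of 28 were positive. The arcuate pair *Pomc* and *Npy* thus had the lowest r (rho = -0.461, exact permutation p = 0.0888 for r, adjusted p = 0.748), and it was -0.552 without ZT2-A and ZT2-C, the libraries farthest from the median of *Pomc*. For *Sst* with *Pomc*, rho was 0.346, and r fell to 0.295 without ZT2-C and ZT22-A (exact permutation p = 0.219 for r, adjusted p = 0.748). The paraventricular pair *Oxt* and *Trh* had r = 0.112 and rho = -0.172 (exact permutation p = 0.7999 for r, adjusted p = 0.892), with r = -0.540 without ZT18-B and ZT18-C. The lateral hypothalamic pair *Hcrt* and *Pmch* had r = -0.128 and rho = -0.0299 (exact permutation p = 0.776 for r, adjusted p = 0.892). Several of these peptides were near the limit of detection, where an r is poorly determined. The pair with the lowest unadjusted value was *Pomc* with *Pmch*, with r = -0.443 and rho = -0.354 (exact permutation p = 0.0367, adjusted p = 0.748).

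Other genes of the neighbouring nuclei ranged from absent to read totals like that of *Trh* (11023) and above. Per kilobase no tested gene of this list reached *Trh* (16.2 CPM per kb), and *Tac2* stood highest among them at 13.6 CPM per kb. Among the peptides and transporters of this list, *Slc17a6* had 15972 reads in all, *Pdyn* (prodynorphin) 9388, *Tac2* (neurokinin B) 8683, *Slc6a3* 7294 and *Cartpt* 2971. Several transcription factors of single nuclei had few. *Otp*, a transcription factor of paraventricular and arcuate neurons, had 4 reads in the 18 libraries together, *Bsx*, a factor of *Agrp* neurons, had 0, and *Npvf*, a dorsomedial peptide, had 1. *Sim1*, which specifies the paraventricular nucleus, was at 0 in 9 libraries and had 70 of its 136 reads in ZT14-B, a library in which *Oxt* (2.03 CPM) and *Trh* (20.3 CPM) were the highest and *Crh* (5 counts) the lowest of the 3 at ZT14. *Nr5a1*, which defines the ventromedial nucleus, had 39 of its 47 reads in ZT6-A. Of 20 such genes, 18 were found, 13 passed the filter and 3 of these changed with time (5 without ZT6-A or without ZT18-C). The 3 were 23.1% of those tested, beside 44% of all tested genes. *Slc6a3*, the dopamine transporter, ran from 29.98 ± 3.68 CPM at ZT2 to 3.96 ± 1.102 CPM at ZT10 (SD, n = 3, edgeR q = 2.02e-06), and *Slc17a6*, the glutamate transporter of hypothalamic neurons, from 55.4 ± 20.7 CPM at ZT22 to 5.06 ± 5.39 CPM at ZT6 (edgeR q = 0.0172). *Foxb1*, a mammillary factor, was the third. The summed level of the tested genes of this list was 41.9 to 79.6 CPM at ZT6 and ZT10 and 76.7 to 185 CPM at the other timepoints.

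Receptors of the 10 peptides were read beside them, since a receptor in the SCN meets peptide that arrives from elsewhere. Of 21 receptor genes 20 were found and tested, and 40% of these changed with time, close to the 44% of all tested genes. The 8 that changed were *Sstr1*, *Sstr2*, *Trhr2*, *Mc4r*, *Npy1r*, *Npy2r*, *Hcrtr2* and *Mchr1*. Their highest mean was at ZT14 for 5 and at ZT22 for 3, and 0 passed a test inside a cluster (edgeR). *Npy1r* ran from 39.8 ± 5.48 CPM at ZT22 to 13.5 ± 5.22 CPM at ZT18 (SD, n = 3, edgeR q = 0.00567), and *Npy2r*, which also sits on the terminals that release *Npy*, from 19.4 ± 11.5 CPM at ZT22 to 0.0316 ± 0.0547 CPM at ZT6 (edgeR q = 2.94e-05). The median spread within a timepoint was 46.8% over the receptors. Per kilobase, *Npy1r* (7.86 CPM per kb) and *Npy5r* (7.16 CPM per kb) stood highest among them.

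Of 14 genes that cut and pack peptides, 12 changed with time (85.7%), beside 44% of all tested genes. Inside a cluster 1 passed a test, *Vgf*, a granule protein, higher at ZT14 than at ZT18 by a log2 difference of 1.34 (edgeR q = 0.0289). *Pcsk1n*, an inhibitor of a prohormone convertase, ran from 205 ± 10.4 CPM at ZT6 to 6.49 ± 0.830 CPM at ZT2 (SD, n = 3, edgeR q = 3.09e-12), and *Chga*, the granule protein chromogranin A, from 659 ± 173 CPM at ZT10 to 24.5 ± 7.36 CPM at ZT22 (edgeR q = 2.77e-08). Of the spread of these 14 genes, a median of 74.6% lay between the clusters. As for *Pomc* and *Oxt*, the lowest means of *Pcsk1n* and *Chga* were in the cluster of ZT22 and ZT2. Those of *Pam*, *Scg3*, *Chgb*, *Vgf* and *Furin* were also there. Other called genes of the list went the other way, with the highest mean at ZT2 for *Pcsk1*, *Scg2* and *Qpct* and at ZT22 for *Scg5*. The summed level of the list was 10272 to 14728 CPM at ZT2 and 7123 to 8611 CPM at ZT14.

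Markers of the tissue and of other cell types were summed in each library. Of 14 SCN markers, 12 changed with time and all were detected, and their sum ran from 2631 to 3492 CPM at ZT14 and from 7056 to 7711 CPM at ZT6. Oligodendrocyte markers (7 of 7 changed) summed to between 4784 and 6128 CPM at ZT14 and ZT18 and to between 1302 and 4447 CPM at the other timepoints. The SCN sum at ZT14 overlapped that at ZT18 (3303 to 3710 CPM) and that at ZT22 (3383 to 4048 CPM). The sum of the 10 peptides was 308 to 403 CPM at ZT14 and 98.2 to 162 CPM at ZT2. Most of the peptide sum came from *Sst* and *Npy*. *Vip* had the highest mean level of the SCN markers, most of which changed with time. Neither the peptide sum nor the SCN sum therefore measures an amount of tissue. Of the other lists, 5 of 6 astrocyte, 6 of 6 microglia, 3 of 6 endothelial and 1 of 6 ependymal cell and tanycyte markers changed. Over all tested genes the share that changed was 44%. The oligodendrocyte sum was thus highest in the cluster of ZT14 and ZT18 and the SCN sum in that of ZT6 and ZT10. Their part in the levels of the peptides was not tested.

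A further table deposited by the authors holds normalized values from which whole reads could be recovered, and at ZT6 and ZT10 it held fewer reads for the same libraries than the count table. The reads in it were 67.8% of the counts for *Sst* at these timepoints, 83.3% for *Oxt*, 84.3% for *Npy* and 77.8% for *Gal*, but 98.5% for *Pomc* and 96.3% for *Trh*. Over 15749 genes the median was 90.6%, and 13.5% of them were at or below the value of *Sst*. At the other timepoints the reads of 9 peptides were identical in 12 of 12 libraries and those of *Trh* in 11. The reason was not tested. On the recovered reads, where 45% of genes were called, the same 4 peptides passed the edgeR time test (q = 0.00140 for *Oxt*, 0.0139 for *Trh*, 0.00418 for *Pomc* and 0.0212 for *Npy*), and the mean of *Sst* was 81.3 CPM at ZT6 in place of 107 CPM.

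**Figure D5:**
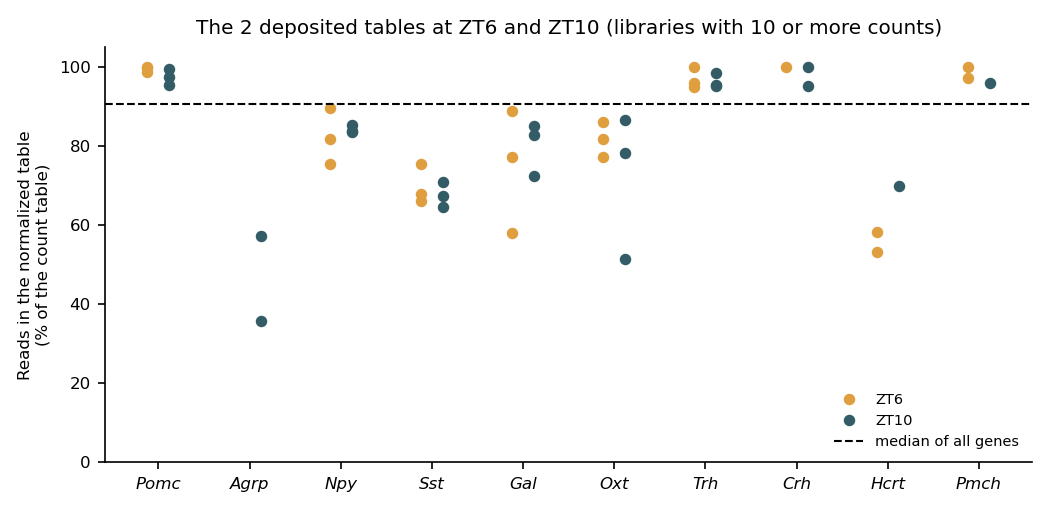
Reads in the normalized table in percent of the counts (y axis) for each peptide (x axis) in libraries of ZT6 and ZT10 with at least 10 counts; the dashed line is the median of all genes, 90.6%. *Pomc*, *Trh* and *Crh* sit near 100%, and *Sst* lies below the median in all 6 libraries.

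The 250 bases before the start site, from RefSeq on GRCm38.p6, were found for 8 peptides (all but *Agrp* and *Crh*) and searched on both strands. The E-box CACGTG, the site bound by CLOCK and BMAL1, was in 0 of these 8 windows and in 6.02% of the 32851 windows of all genes. The full cAMP response element TGACGTCA was in the window of *Sst* only, and in 1.55% of all windows. The shorter TGACG, which the full element contains, was in those of *Sst* and *Trh* and in 17.8% of all windows. The parts around the matches are shown because *Sst* and *Trh* are the only peptides with one, and the match is in capitals.
Sst, chr16:23890874-23890903, minus strand: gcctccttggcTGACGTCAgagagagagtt
Trh, chr6:92244729-92244758, minus strand: ccccggctctgcCGTCAgcgcccctgcatt
The match begins 48 bases before the RefSeq start site in *Sst* and 96 bases before it in *Trh*, where it reads on the other strand. The *Sst* window lies inside the GENCODE M21 span of the gene (chr16:23889573-23890958), which starts further upstream. A match describes the letters only.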

How the data were processed

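RNA from laser-captured SCN was measured at 6 timepoints with 3 replicates each, in 54 lane samples that make 18 libraries. The authors aligned reads with GSNAP to mm10 (GRCm38) and counted them per gene with HTSeq 0.5.4p1, per the labels. The authors deposited a table of raw counts with the lanes combined, and a table of normalized signal, whole reads divided by a size factor per library, where the reads at ZT6 and ZT10 are fewer than in the count table. In the latter 100% of values were whole reads within 0.01. No sample column was left unused (0 columns). 

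Of the identifiers, 97.41% had a symbol in GENCODE M21, whose exon lengths, unlike the authors' annotation, gave levels per kilobase. Genes read at least 1 time in over 6 libraries were tested with edgeR 4.0.16 (TMM, quasi-likelihood, Benjamini–Hochberg, threshold 0.05) in R 4.3.3, and DESeq2 1.42.0 served as an alternative. A q-value is a p-value so adjusted over all tested genes. Log2 CPM used a prior count of 2. Shares of spread, permutations and sequences were computed in Python 3.11.15 with numpy 2.4.6 and pandas 2.3.3. The fit was tested on simulated data. The members and lists were chosen with earlier results of these data known. Named were all members, 2 called genes of smallest p from each related list (marker lists apart from the telencephalic are given by counts), genes a result turned on, and the 3 genes likest each member.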

Additional observations from a re-analysis of the deposited data

How the results depend on the processing

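Leaving out each library, other normalizations, filters and tools, a replicate block and the recovered reads were tried. For the 4 peptides called, the difference between the highest and lowest timepoints kept its direction in each setting that gave it. The 2 timepoints were picked as the extremes of the same data, so a kept direction was nearly fixed in advance. Directions of the r of pairs were not followed in these settings, and that of *Oxt* with *Trh* changed sign without ZT18-B and ZT18-C. The number of peptides changing with time was 4 (8343 genes called in all) and also 4 with the replicate block (7847 genes), with DESeq2 (10042 genes, and no q for *Sst*) and with the recovered reads (9367 genes). It was 2 with at least 10 counts required in every library, where only *Sst*, *Trh* and *Npy* could be tested, and 2 without ZT2 and ZT22, a setting chosen after seeing the data. Replicate letters did not mark a shared origin (45 pairs of libraries with the same letter, median r of deviations -0.00298), and the block changed no call of a peptide. DESeq2 called 2 peptides between ZT14 and ZT18 (*Trh* and *Npy*, among 842 genes) where edgeR called 0 (among 108 genes). The median share of spread within timepoints was 48.6% and ran from 41.5% without ZT6-C to 52.9% without ZT18-A. The cause of these shifts was not tested. Counts per library limit *Crh*, *Agrp*, *Hcrt* and *Pmch*, whose means were 9.17, 9, 11.6 and 16.2 reads.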
